A study of Homo sapiens with 10 samples.

Results

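The comparison covers 3 RNA-seq libraries of TPC-1 cells that overexpressed PTCSC3-AS1 (OE1, OE2 and OE3) and 3 libraries of TPC-1 cells with an empty vector (EV1, EV2 and EV3). They are 6 of the 10 libraries of the study, taken because one deposited count table holds them together, and they are called the first set. The other 4 libraries, EV and OE replicates 4 and 5, are in another deposited table and are called the second set. TPC-1 is an established human papillary thyroid carcinoma line that carries a RET/PTC1 fusion, and it is the line in every group. The OE columns of the first set carry the prefix EST in their names, a prefix that no label explains. The labels name no dose, time after transfection or clone, and they do not say whether each library had its own culture. Every p-value below thus weighs a difference against the spread of these libraries alone, some or all of which can be technical.

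PTCSC3-AS1 is an antisense RNA at PTCSC3, a thyroid cancer susceptibility locus. Long non-coding RNAs are not translated. Some, such as NEAT1 and MALAT1, stay in the nucleus and associate with nuclear bodies. Cells hold a set of short-lived transcripts, among them immediate-early genes such as the FOS, JUN and ATF families, whose levels move quickly with serum, glucose, stress and handling.

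The 6 libraries held 16008561 to 18066559 counts and 20630 to 22029 detected genes, so that 3 counts, the limit that a count of 0 allows, equal 0.166 to 0.187 CPM (counts scaled to a library total of 1000000). That limit covers counting error only. No row of the table bore the name PTCSC3-AS1, and PTCSC3 and the overlapping LINC00609 had 0 counts in all 6 libraries, so the OE labels could not be checked against the transcript. Of the thyroid lineage markers, PAX8 was abundant (356 to 475 CPM), while NKX2-1, TSHR and SLC5A5 had 0 counts throughout. KRT8 and KRT18 were present, and the epithelial adhesion genes EPCAM and CDH1 had at most 4 counts. Markers of other cell types were low in both groups. The 10 fibroblast markers summed to 12.9 to 15.3 CPM in EV and 13.3 to 15.7 CPM in OE (3 at 0 throughout), the 11 leukocyte markers to 2.04 to 3.50 and 1.77 to 3.37 CPM (4 at 0), the 6 endothelial markers to 0.907 to 1.48 and 0.685 to 1.33 CPM (2 at 0), and the 7 neuroendocrine markers to 1.98 to 2.75 and 1.797 to 2.91 CPM (3 at 0).

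EV2 stood apart from the other 5 libraries before any comparison of groups. The median absolute difference in log2 CPM was 0.13 between EV1 and EV3 and 0.13 to 0.14 between OE libraries, but 0.30 between EV1 and EV2 and 0.33 between EV2 and EV3. The same measure between EV2 and the OE libraries was 0.25, 0.26 and 0.30 (OE1, OE2 and OE3), so EV2 lay closer to OE1 and OE2 than to either EV library. On the 1000 most variable genes the first principal component (33.2% of the variance) gave EV2 a score of 28.6 and the others -10.5 to -0.98. The second component (22.7%) placed the EV libraries at -18.2 to -2.93 and the OE libraries at 7.46 to 12.8. Results are given below with and without EV2.

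With all 6 libraries, 5 RNAs were lower in OE cells and none was higher. They were ATF3, a stress-induced transcription factor of the CREB/ATF family, KLF10, an early-response zinc finger factor induced by TGF-beta, and NR1D1, the circadian repressor REV-ERB-alpha. The others were TXNIP, an alpha-arrestin that restrains glucose uptake and binds thioredoxin, and NEAT1, the scaffold RNA of nuclear paraspeckles. By edgeR's quasi-likelihood test with Benjamini-Hochberg adjusted p under 0.05, 0 of 14340 genes rose (0%) and 5 fell (0.0349%). At an unadjusted p under 0.05 the same test gave 627 higher (4.37%) and 641 lower genes (4.47%). DESeq2 called 24 higher and 52 lower. In RNA from whole cultures, fewer cells of a type and less RNA per cell cannot be told apart.

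ATF3 (ENSG00000162772, hg38 chromosome 1, 212565334 to 212620777, plus strand) was read at 29.6, 33.1 and 31.1 CPM in EV1, EV2 and EV3, and at 10.02, 10.6 and 12.7 CPM in OE1, OE2 and OE3. No EV library came near any OE library, and EV2 lay with its group. The log2 fold change was -1.49 (SE 0.13, n = 3 per group, edgeR adjusted p = 0.0102). KLF10 (ENSG00000155090) stood at 156, 163 and 147 CPM in EV and at 73.3, 79.4 and 89.1 CPM in OE. It fell by 0.95 on the log2 scale (SE 0.10, edgeR adjusted p = 0.0198), again with every OE library well below every EV library.

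NEAT1 (ENSG00000245532, chromosome 11, 65422774 to 65445540, plus strand) stood at 331, 337 and 348 CPM in EV and at 189, 194 and 197 CPM in OE, with no library near the other group. Its log2 fold change was -0.81 (SE 0.08, edgeR adjusted p = 0.0153). TXNIP (ENSG00000265972, chromosome 1, 145992435 to 145996600, minus strand) stood at 126, 114 and 123 CPM in EV and at 72.4, 73.5 and 69.0 CPM in OE. Its log2 fold change was -0.76 (SE 0.09, edgeR adjusted p = 0.0332). NR1D1 (ENSG00000126368, chromosome 17, 40092787 to 40100725, minus strand) was at 47.9, 45.6 and 44.2 CPM in EV and at 25.4, 25.4 and 28.4 CPM in OE, with a log2 fold change of -0.80 (SE 0.10, edgeR adjusted p = 0.0469). Its 3' end overlaps THRA on the opposite strand (18.7, 9.90 and 17.1 CPM in EV, 19.5, 20.2 and 19.5 CPM in OE), and no source used here states whether reads were counted by strand. The spans of MDM2, NR1D2, IFIT2, PAX8, TAF10 and ROMO1, named below, also overlap a gene of the opposite strand, so their counts carry the same limit. For all 5 the EV and OE libraries formed separate groups with a gap of at least 0.63 on the log2 scale, and EV2 sat within 0.13 of the median of EV1 and EV3. All 5 calls are lost when EV1, OE1 or OE2 is left out, where 0 genes fell, and 1 of the 5, ATF3, remained when EV3 or OE3 is left out.

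**Figure D1:**
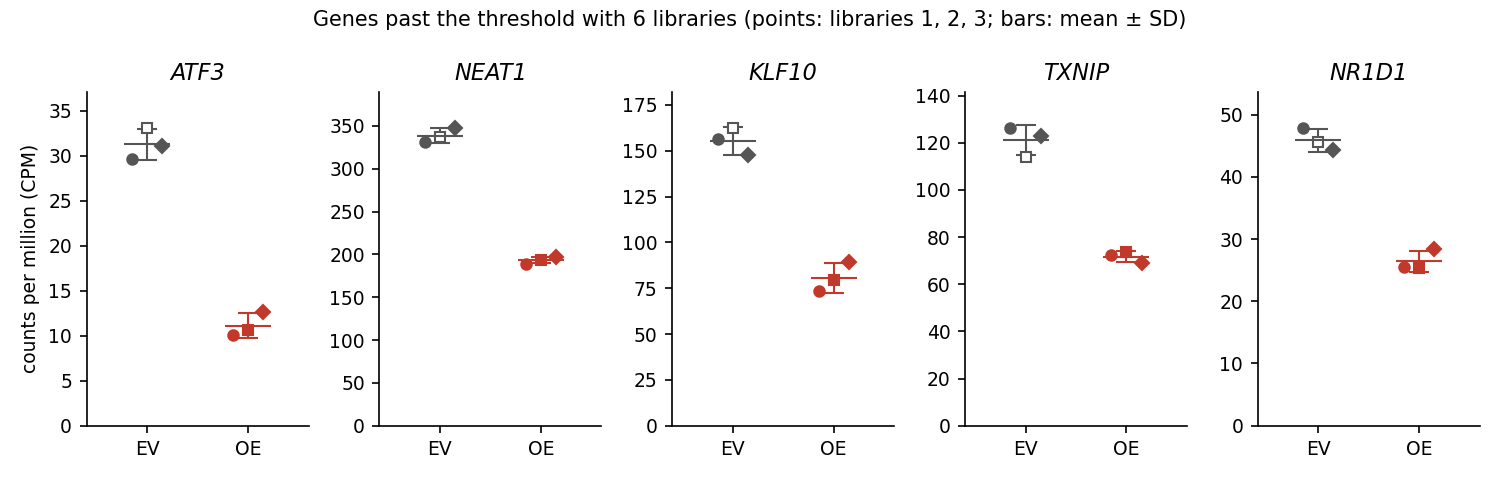
CPM of the 5 RNAs that fell, on linear axes from 0, for each EV library (grey) and OE library (red); circles are replicate 1, squares replicate 2 (EV2 open) and diamonds replicate 3, and bars give the mean and SD (n = 3). In each panel the 3 OE points lie below the 3 EV points, for ATF3 at 10.02 to 12.7 against 29.6 to 33.1 CPM.

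Promoter sequence was at hand for ATF3, TXNIP and NR1D1, from the RefSeq promoter table of GRCh38.p14. They are shown because these RNAs fell together and because the first of them is the leading result. Each run is the 250 bases before an annotated start, on the gene's strand, 5′ to 3′, and the first of the listed starts is used for ATF3 and TXNIP. Capitals mark a pair of CACGAG elements 5 bases apart, the form of the carbohydrate response element through which glucose-sensing MondoA and ChREBP act on TXNIP.
ATF3, chr1:212565157-212565406, plus strand: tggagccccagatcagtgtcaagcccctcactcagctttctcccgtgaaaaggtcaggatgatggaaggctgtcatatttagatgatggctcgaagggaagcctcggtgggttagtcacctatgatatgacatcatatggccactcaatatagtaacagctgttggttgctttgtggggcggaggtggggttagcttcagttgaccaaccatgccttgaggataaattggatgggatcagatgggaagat
TXNIP, chr1:145996580-145996829, minus strand: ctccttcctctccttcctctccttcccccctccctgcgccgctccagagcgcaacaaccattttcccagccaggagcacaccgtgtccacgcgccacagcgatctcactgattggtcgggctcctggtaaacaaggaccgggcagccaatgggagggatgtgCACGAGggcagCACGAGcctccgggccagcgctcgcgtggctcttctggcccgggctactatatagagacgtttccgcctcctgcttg
NR1D1, chr17:40100590-40100839, minus strand: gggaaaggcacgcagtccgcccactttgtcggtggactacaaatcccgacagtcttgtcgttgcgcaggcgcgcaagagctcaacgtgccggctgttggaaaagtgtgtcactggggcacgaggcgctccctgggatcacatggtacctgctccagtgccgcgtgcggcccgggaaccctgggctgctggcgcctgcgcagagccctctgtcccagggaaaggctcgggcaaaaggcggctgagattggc
The TXNIP pair lies 88 to 72 bases before the start. Searched on either strand over 300 bases (250 before to 50 after each start), it occurs in 2 of 35116 promoter windows (0.0057%), those of TXNIP and KCTD5. The letters searched are the form known from TXNIP, so a match there was fixed in advance and is no result. Of the 10 matched genes of the list of alpha-arrestins and glucose-sensing factors, 1 held it, TXNIP. Other forms of the element were not searched, so the other genes cannot be said to lack one. MLXIPL, the gene of ChREBP, had 1 to 9 counts in the 6 libraries and was not tested. None of the 3 matched genes that fell held the CRE TGACGTCA (1.85% of all windows), the E-box CACGTG (7.26%), the AP-1 site TGACTCA (4.95%) or the amino acid response core TGATGCAA (0.866%) in these windows. For ATF3 the windows were those of 2 listed starts, just after chr1:212565406 and chr1:212615017. Any other start of ATF3 was not searched, so its promoters cannot be said to lack these elements. Of 10093 matched tested genes, 3.74%, 12.7%, 5.14% and 0.694% held them in any of their windows. These shares count genes and not windows, so they are not on the same footing as the shares of all windows. Of 36 matched immediate-early genes, 5 held the CRE, 6 the E-box, 1 the AP-1 site and 0 the amino acid response core. A match is a run of letters, and its absence says only that these letters are not in this window.

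The genes that separated the groups numbered far more than those that passed the test. In 1211 of 14340 genes (8.44%) all 3 OE libraries lay above all 3 EV libraries, and in 1229 (8.57%) all lay below, together 2440 genes (17%). These are counts with no test, and how many genes other groupings of the libraries would separate was not asked. With a gap of at least 0.2 on the log2 CPM scale, 162 lay above and 255 below. The 12 largest gaps below, among genes with a mean log2 CPM of at least 3, belonged to ATF3, NEAT1, KLF10, GADD45A, CCZ1, NR1D1, TXNIP, ARRDC3, DLX2, BTG2, ANKRA2 and IFIT2. CCZ1 has a near-identical copy, so its reads may have been split. The 12 largest gaps above were smaller, 0.34 to 0.52 against 0.53 to 1.21, and belonged to TAF10, FAM20C, C3, OSBPL5, PLLP, HDAC11, A4GALT, FZD1, PAQR4, MAP2K6, ZBTB22 and UNC5A. FAM20C, a secretory-pathway protein kinase, was read at 219, 217 and 207 CPM in EV and at 320.1, 308 and 299 CPM in OE. Its log2 change was 0.53 (SE 0.08), and it missed the threshold (edgeR adjusted p = 0.110).

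The direction of separation moved with the base composition of the transcript. Of 2352 genes with a GC content of up to 40%, 1.15% had all OE libraries above EV and 17.1% had all below. Of 1931 genes with a GC content over 60%, 21.6% were above and 1.502% below. The median log2 change ran from -0.11 to 0.15 across the same bins. Gene groups rich or poor in GC are therefore given below also after an offset that removes, for each library, its trend with GC content and length, an alternative chosen after seeing the data. What part composition plays in any 1 gene was not tested. The 5 RNAs that fell had log2 changes of -1.45 (ATF3), -0.91 (KLF10), -0.91 (NR1D1), -0.78 (NEAT1) and -0.68 (TXNIP) with the offset. NEAT1 then missed the threshold (edgeR adjusted p = 0.117). FAM20C, with a GC content of 64.6%, had a log2 change of 0.36 with the offset, against 0.53 without it.

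**Figure D2:**
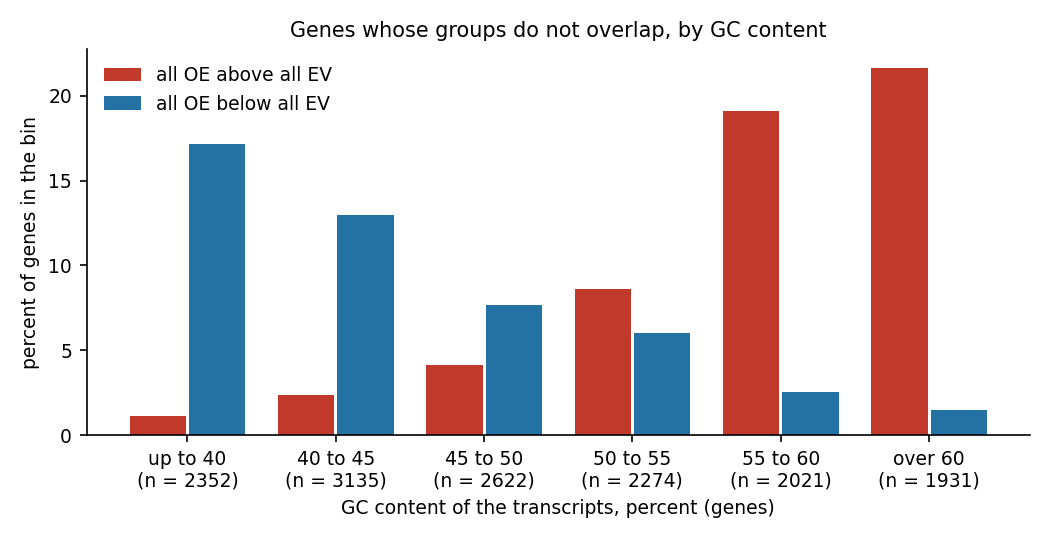
Percent of genes in each bin of transcript GC content (x axis, percent, with the number of genes) whose 3 OE libraries all lie above (red) or all below (blue) the 3 EV libraries. The red bars grow from 1.15% to 21.6% and the blue bars shrink from 17.1% to 1.502%.

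The counts of separated genes in each list below stand against 8.44% above and 8.57% below over all genes. Stress-induced and immediate-early regulators were split. All 46 listed genes were tested, 2 fell (ATF3 and KLF10) and 0 rose. In 15 the OE libraries all lay below EV and in 5 all lay above. The list median was -0.01, as over all genes, but -0.10 with the offset, against 0.00 over all genes. The median GC content of the list was 55.04%. GADD45A, which halts the cell cycle after stress, was read at 159.8, 202 and 155 CPM in EV and at 96.8, 79.6 and 93.9 CPM in OE (log2 change -0.93, SE 0.13, edgeR adjusted p = 0.0712). BTG2, an antiproliferative p53 target, was at 58.0, 49.9 and 46.7 CPM in EV and at 30.7, 31.5 and 29.95 CPM in OE (log2 change -0.75, SE 0.11, edgeR adjusted p = 0.0838). Neither passed with 6 libraries, although no OE library reached an EV library. SOCS3, FOSB and JUNB, chosen after their values were seen, lay on the other side, with log2 changes of 0.39, 0.35 and 0.28. FOSB and JUNB encode AP-1 subunits, so members of the FOS, JUN and ATF families did not share a direction.

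Targets of p53 lay lower as a list. Of 28 tested genes 12 had all OE libraries below EV and 0 above, and the median was -0.24 against -0.01 over all genes (-0.25 with the offset). None passed the test with 6 libraries. GADD45A and BTG2 belong to this list too. SESN1, a stress-induced inhibitor of mTORC1, stood at 25.6, 24.99 and 26.0 CPM in EV and at 15.4, 17.5 and 15.7 CPM in OE (log2 change -0.66, SE 0.11). MDM2, the ubiquitin ligase that degrades p53, stood at 238, 204 and 260.0 CPM in EV and at 146, 151 and 159 CPM in OE (log2 change -0.62, SE 0.10). For both, EV and OE did not overlap and the edgeR adjusted p was 0.160.

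Among targets of TGF-beta and BMP signalling, 11 of 21 had all OE libraries below EV and 2 above, with a median of -0.14 (-0.22 with the offset). KLF10 fell, and it is the only member that did. SKIL, a repressor of SMAD signalling that is itself a target, stood at 65.2, 58.5 and 73.9 CPM in EV and at 42.2, 43.7 and 42.0 CPM in OE (log2 change -0.63, SE 0.11, edgeR adjusted p = 0.160). With the offset SKIL had -0.49. ID3, a dominant-negative helix-loop-helix protein, and TSC22D1 had log2 changes of -0.48 and -0.28, with groups that did not overlap.

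In the list of alpha-arrestins and glucose-sensing factors, 3 of 10 tested genes had all OE libraries below EV and 0 above, while 6 of the 10 had a log2 change above 0. TXNIP fell. ARRDC3, which directs receptors and transporters to degradation, stood at 56.1, 50.1 and 57.0 CPM in EV and at 26.1, 31.4 and 32.4 CPM in OE (log2 change -0.86, SE 0.11, edgeR adjusted p = 0.0699). ARRDC4, a close relative of TXNIP, stood at 20.3, 14.9 and 15.4 CPM in EV and at 10.02, 9.73 and 10.8 CPM in OE (log2 change -0.73, SE 0.15, edgeR adjusted p = 0.305). The other 7 tested members of the list, which hold glucose sensors and transporters, overlapped between the groups, and the list median was 0.03 (-0.03 with the offset).

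In the circadian clock list 1 of 19 genes fell, NR1D1, and 5 had all OE libraries below EV, with 0 above. NR1D2, its paralog REV-ERB-beta, stood at 74.5, 63.6 and 76.7 CPM in EV and at 49.3, 54.7 and 56.3 CPM in OE (log2 change -0.42, SE 0.11, edgeR adjusted p = 0.370). With the offset NR1D2 had -0.32. BHLHE41, the repressor DEC2, stood at 12.03, 12.9 and 9.76 CPM in EV and at 6.68, 6.75 and 8.83 CPM in OE (log2 change -0.64, SE 0.18). The list median was -0.12.

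Nuclear and small-RNA host transcripts lay lower. Of 26 tested long non-coding RNAs 10 had all OE libraries below EV and 0 above, with a median of -0.25 (-0.18 with the offset), and 1 fell, NEAT1. MALAT1, the neighbour of NEAT1 on chromosome 11 and a component of nuclear speckles, stood at 148, 159.8 and 214 CPM in EV and at 84.5, 84.2 and 108 CPM in OE (log2 change -0.91, SE 0.16, edgeR adjusted p = 0.160). SNHG1, a host of small nucleolar RNAs, stood at 83.2, 111 and 83.2 CPM in EV and at 69.3, 61.4 and 64.1 CPM in OE, with a log2 change of -0.51 (SE 0.13). FTX, a non-coding RNA of the X-inactivation centre, had -0.48 (SE 0.13).

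Replication-dependent histones had the lowest median of the 33 lists, -0.72 over 23 tested genes of 37 listed (-0.65 with the offset). In 13 all OE libraries lay below EV, in 0 above, and none passed the test. HIST1H2BG stood at 10.7, 10.2 and 7.99 CPM in EV and at 3.62, 3.87 and 4.30 CPM in OE (log2 change -1.29, SE 0.18, edgeR adjusted p = 0.0776). HIST1H2AC stood at 17.7, 23.4 and 22.3 CPM in EV and at 11.7, 10.4 and 12.6 CPM in OE (log2 change -0.87, SE 0.15). HIST1H2BE and HIST1H2BC were scarcer, at 1.52 to 2.49 and 2.31 to 3.77 CPM in EV, with log2 changes of -2.41 and -1.69. Histone genes of a class are nearly identical in their coding parts, so single members are uncertain. Most replication-dependent histone mRNA lacks a poly(A) tail, and no source used here states how RNA was selected. Histone reads were 0.0118 to 0.0147% of all counts in EV and 0.00810 to 0.00940% in OE. Genes of DNA replication did not lie lower beside them. Of 37 tested genes of the G1/S and DNA replication list 6 had all OE libraries above EV and 2 below, with a median of 0.07.

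The share of counts from mitochondrially encoded genes was 4.94% ± 0.24 for EV (SD, n = 3) and 4.39% ± 0.11 for OE (SD, n = 3). In 5 of 15 genes all OE libraries lay below EV, in 0 above, and the median was -0.16, but -0.06 with the offset. The lowest value belonged to MT-RNR1, the small ribosomal RNA, at 896, 1284 and 1181 CPM in EV and 637, 588 and 743 CPM in OE (log2 change -0.77, SE 0.14, edgeR adjusted p = 0.215). MT-RNR2, the large ribosomal RNA, had -0.33 (SE 0.08), while the complex I subunits MT-ND1 and MT-ND2 had -0.18 and -0.16.

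Of 31 genes of the unfolded protein and integrated stress response 7 had all OE libraries below EV (22.6%) and 1 above (3.23%), with a median of -0.07. SLC7A11, the cystine transporter, stood at 48.4, 36.6 and 50.5 CPM in EV and at 28.9, 27.7 and 31.1 CPM in OE (log2 change -0.63, SE 0.13, edgeR adjusted p = 0.307). PPP1R15A, the phosphatase subunit GADD34, HERPUD1, which takes part in degradation of proteins at the endoplasmic reticulum, and DDIT3, the transcription factor CHOP, had log2 changes of -0.46, -0.35 and -0.83. None passed the test.

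Of 41 tested interferon-stimulated genes 12 had all OE libraries below EV (29.3%) and 2 above (4.88%), 29 had a log2 change below 0, and none passed. IFIT2, which binds RNA in the antiviral response, stood at 72.2, 69.8 and 75.5 CPM in EV and at 47.7, 47.2 and 48.3 CPM in OE (log2 change -0.60, SE 0.09, edgeR adjusted p = 0.0838). IFIT1 and IFIT3 had -0.46 and -0.39. IFI6, an interferon-induced membrane protein, stood at 138, 184 and 139 CPM in EV and at 257, 200.4 and 236 CPM in OE, with a log2 change of 0.59 (SE 0.14). The list median was -0.10.

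On the other side, antigen presentation genes had 4 of 19 above, 0 below and a median of 0.16 (0.10 with the offset). HLA-C, a class I heavy chain, stood at 119, 152 and 130.2 CPM in EV and at 197, 163 and 170.5 CPM in OE (log2 change 0.40, SE 0.12, edgeR adjusted p = 0.427). HLA-F had 0.44 (SE 0.14), and reads of class I genes can be shared between them. With the offset HLA-C had 0.27 and HLA-F 0.34. Epithelial genes had 5 of 15 above, 0 below and a median of 0.22 (0.16 with the offset). ELF3, an epithelial ETS factor, had 0.69 (SE 0.19), JUP, plakoglobin, 0.32 (SE 0.10), PKP3, a desmosomal plakophilin, 0.27 (SE 0.11) and KRT80, a keratin, 0.25 (SE 0.11). In that order they had 0.58, 0.17, 0.10 and 0.16 with the offset. The median GC content of these lists was 54.8% and 56.2%, against 48.0% over all genes.

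NF-kB targets and cytokines had 6 of 28 above and 2 below, with a median of 0.06. C3, the central complement component, stood at 129, 92.7 and 141 CPM in EV and at 207, 190.3 and 246 CPM in OE (log2 change 0.83, SE 0.16, edgeR adjusted p = 0.216). SAA1, an acute-phase protein with a near-identical paralog, had 1.15 (SE 0.24), and SOD2, mitochondrial superoxide dismutase, 0.31 (SE 0.08). IL6 lay on the other side at 34.3, 44.0 and 35.7 CPM in EV and 26.2, 28.8 and 25.7 CPM in OE (log2 change -0.50, SE 0.12).

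Hypoxia and glycolysis genes had 8 of 30 above and 1 below, with a median of 0.08. PFKL, liver phosphofructokinase, had a log2 change of 0.40 (SE 0.09) and VEGFA, the endothelial growth factor, 0.36 (SE 0.08), both with groups that did not overlap. With the offset PFKL had 0.21 and VEGFA 0.26. Cholesterol synthesis genes had 5 of 29 above and 2 below, with a median of 0.13. SREBF1, a regulator of lipid synthesis, had 0.33 (SE 0.09) and 0.14 with the offset, and LSS, lanosterol synthase, 0.29 (SE 0.09) and 0.15. None of these genes passed the test. PAX8, the thyroid lineage factor, stood at 381, 356 and 403 CPM in EV and at 451, 447 and 475 CPM in OE (log2 change 0.27, SE 0.08, edgeR adjusted p = 0.448). With the offset PAX8 had 0.14. MAPK pathway output, on which RET/PTC1 cells depend, had 2 of 24 above and 2 below, with a median of 0.03, and RET itself had -0.09 (SE 0.09). Near PTCSC3 on chromosome 14, 2 of 10 tested genes, BRMS1L and MBIP, had all OE libraries below EV, and none passed.

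**Figure D3:**
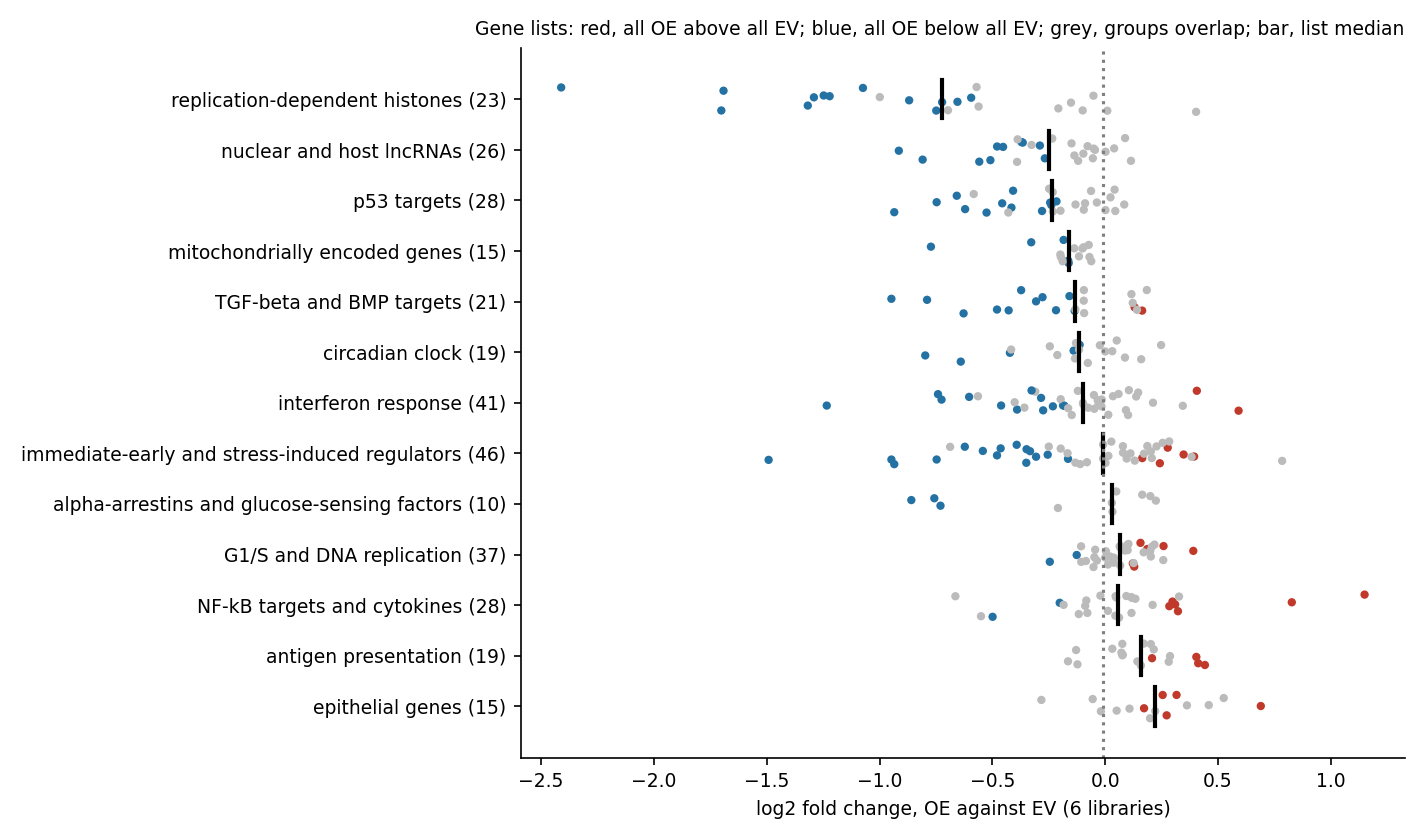
Log2 fold change of OE against EV (x axis, 6 libraries) for each tested gene of 13 lists (number of tested genes in brackets); red points have all OE libraries above all EV libraries, blue points all below, grey points overlap, black bars are list medians and the dotted line is the median of all genes. Histones lie farthest to the left (median -0.72) and epithelial genes farthest to the right (0.22).

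EV2 changed the size of the result. Without it, 896 of 14769 genes rose (6.07%) and 682 fell (4.62%), together 1578 (10.7%), by edgeR's quasi-likelihood test with adjusted p under 0.05. Leaving out any other library gave 0 higher and 0 or 1 lower genes. The biological coefficient of variation was 0.135 with 6 libraries, 0.0686 without EV2 and 0.130 to 0.153 without any other library. The median standard error of a log2 change went from 0.149 to 0.115. The prior degrees of freedom, which set how far edgeR pulls each gene's spread to a common trend, went from 5.32 to 25.2. Without any other library they were 4.62 to 6.50. The SD of log2 CPM had a median of 0.22 over the 3 EV libraries, 0.089 over EV1 and EV3, and 0.11 over OE. EV2 was left out because of how it stood, so the counts without it describe its influence and are no independent support. They also rest on 2 EV libraries: without EV3 as well, 72 genes rose and 89 fell.

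**Figure D4:**
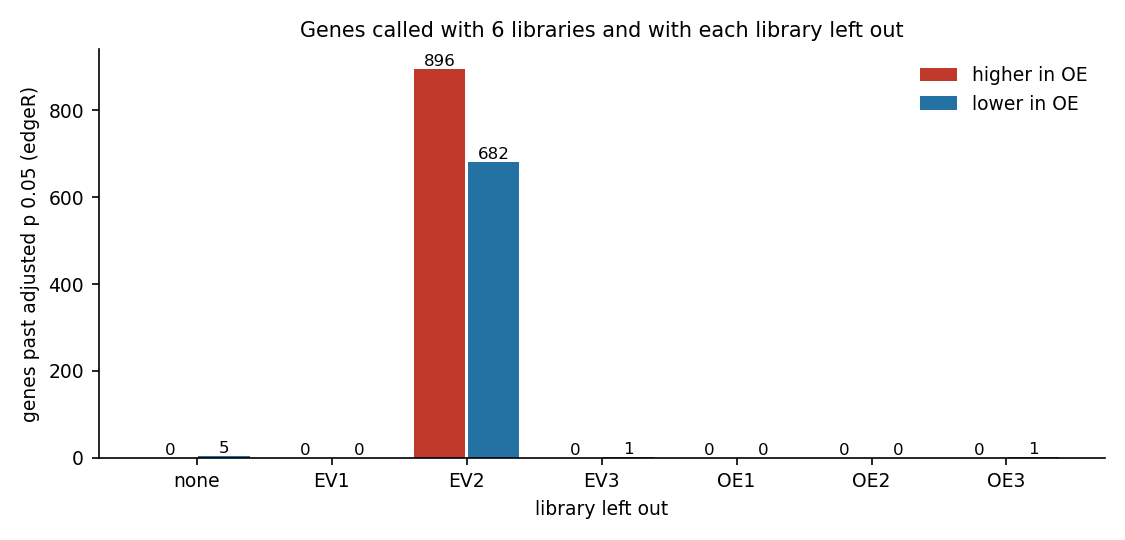
Number of genes past an edgeR adjusted p of 0.05 (y axis) with all 6 libraries (none) and with each library left out (x axis); red, higher in OE; blue, lower. Leaving out EV2 gives 896 and 682 genes, and each other column gives 0 higher and at most 5 lower.

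For 1560 of these genes that were also tested with 6 libraries, EV2 took 3 kinds of position. It lay on the EV side of all OE libraries for 587 (37.6%), within the OE range for 373 (23.9%) and beyond all OE libraries for 600 (38.5%). Among 667 lower genes EV2 was beyond OE for 331 (49.6%), and their median length was 10937 bases. Among 893 higher genes it was beyond OE for 269 (30.1%), with a median length of 2450 bases. The median length over all tested genes was 4747 bases.

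EV2 differed from EV1 and EV3 along gene length. Its log2 CPM lay a median of 0.35 above that of the other EV libraries for genes of up to 1000 bases and 0.39 above for genes over 1000 and up to 2000 bases, and 0.31 below for genes over 8000 bases. The Spearman correlation of its deviation with length, a description across 14340 genes that share a library, was -0.44, against 0.30 and 0.36 for EV1 and EV3 and -0.24, 0.004 and 0.21 for the OE libraries. Each library is set against the other 2 of its group, so the values of a group are tied. Those of EV1 and EV3 in part mirror EV2 and are no separate contrast. EV2 was more than 1 log2 unit above its group for 272 genes and below for 539. By the same tied measure EV1 was above for 170 and below for 197, and EV3 above for 264 and below for 194. The genes in which EV2 lay lowest included HSPG2, the matrix proteoglycan perlecan, at 43.0 CPM against 129 and 148, and SHANK1, a scaffold protein, at 30.5 CPM against 102 and 101. Those in which it lay highest included COMMD6, at 48.9 CPM against 12.1 and 15.3, and the pseudogene RPS20P14, at 26.6 against 12.5 and 10.5. Whether the cells, the RNA or the library made EV2 differ was not tested.

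**Figure D5:**
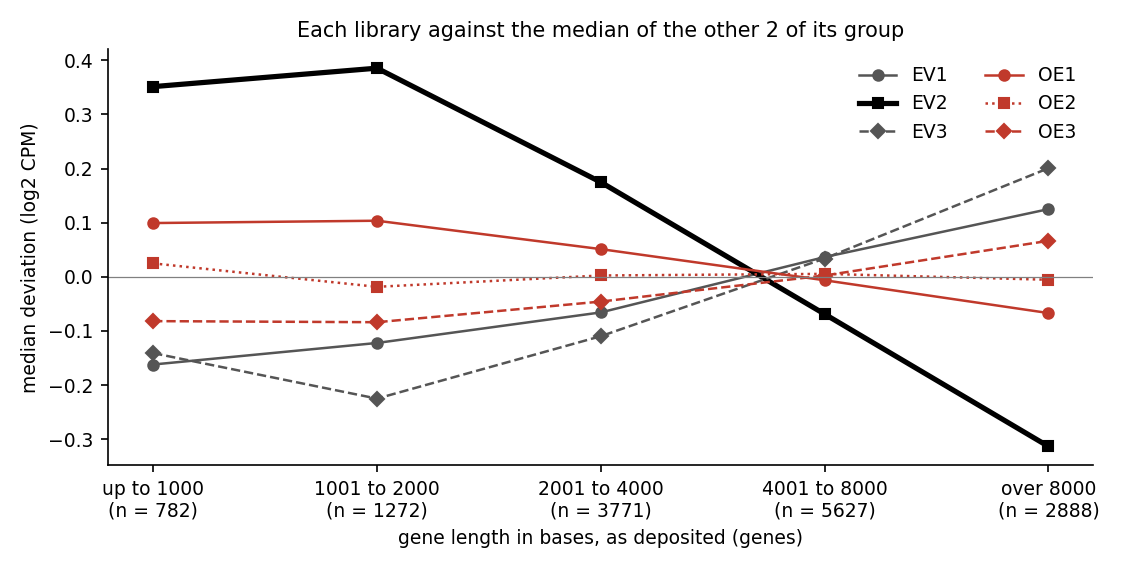
Median deviation of each library, in log2 CPM, from the median of the other 2 libraries of its group (y axis) by gene length in bases (x axis, with the number of genes); grey and black lines are EV, red lines OE. EV2 (thick black) runs from 0.35 to -0.31, wider than any other library.

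The lists of ribosomal protein, oxidative phosphorylation and S100 genes moved with EV2. Their median gene lengths, as deposited, were 3109, 2468.5 and 1284 bases, against 4747 over all tested genes. EV2 lay a median of 0.59, 0.55 and 0.67 above the other EV libraries in these lists, and at most 0.39 above in any bin of length. What part length plays in these lists was not tested. Of 79 ribosomal protein genes 0 separated the groups with 6 libraries, and the median log2 change was -0.09. Without EV2 28 rose, 0 fell and the median was 0.17. RPS28 stood at 139.5, 223 and 128 CPM in EV1, EV2 and EV3 and at 208, 175 and 172 CPM in OE, so that EV2 alone exceeded every OE library. Ribosomal protein reads were 7.08% of counts in EV2 and 4.76 to 5.85% in the other libraries. Of 74 tested nuclear-encoded oxidative phosphorylation genes 3 lay above and 1 below with 6 libraries (median 0.00), and without EV2 24 of 75 rose and 0 fell (median 0.20). COX8A, a subunit of cytochrome c oxidase, stood at 50.5, 60.9 and 42.9 CPM in EV and at 87.8, 66.2 and 62.8 CPM in OE. The S100 calcium-binding proteins had a median of 0.09 with 6 libraries and 0.34 without EV2, where 3 of 10 rose. With the GC and length offset and without EV2, 20 ribosomal protein, 18 oxidative phosphorylation and 2 S100 genes rose. Over all 14769 genes of that fit 448 rose and 436 fell.

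Lists of p53 targets, histones and long non-coding RNAs also lay lower without EV2. The counts of calls in each list stand against 6.07% that rose and 4.62% that fell over all genes. Counts with the offset stand against a smaller background, 448 of 14769 genes that rose and 436 that fell. The p53 targets had -0.25, with 13 of 28 genes that fell and 0 that rose, among them MDM2 (log2 change -0.70, SE 0.07) and GADD45A (-0.79, SE 0.07). The histones had -0.66, with 7 of 23 that fell, and the long non-coding RNAs -0.16, with 5 of 26 that fell, among them MALAT1 (-0.96, SE 0.10). Of the 10 tested genes of the list of alpha-arrestins and glucose-sensing factors 3 fell, TXNIP, ARRDC3 and ARRDC4. Of 19 clock genes 5 fell and 1 rose, and of 46 immediate-early genes 9 fell and 11 rose, but 13 fell and 2 rose with the offset. Interferon genes had 8 that fell and 2 that rose, among the latter IFI6 (0.75, SE 0.08), and YAP/TAZ targets 8 of 21 that fell and 0 that rose. Antigen presentation had 5 of 19 that rose and 1 that fell (6 and 0 with the offset). Of 16 epithelial genes 5 rose and 0 fell, but 1 rose and 0 fell with the offset.

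The largest falls without EV2 were those of NOMO3, ATF3, MALAT1, ZNF79, ARRDC3, KLF10, CCZ1, ADAMTS6, ARRDC4 and NEAT1, among genes with a mean log2 CPM of at least 3. NOMO3 stood at 31.6, 6.65 and 21.96 CPM in EV and 8.10, 10.3 and 8.27 CPM in OE, so that EV2 was below every OE library. It has near-identical copies and is uncertain. The largest rises belonged to IFI27L2, H2AFJ, DNPH1, MRPL12, MMP1, IFI6, C1QTNF1, FAM173A, ATP5ME and ROMO1, with log2 changes of 0.74 to 0.85. ROMO1, a small mitochondrial membrane protein, stood at 22.1, 38.9 and 22.5 CPM in EV and 47.0, 31.8 and 32.0 CPM in OE, so that EV2 lay within the OE range.

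The second set, of 2 OE and 2 EV libraries, served to ask which changes differed between the sets. An interaction term over all 10 libraries called 1 of 15404 genes (0.00649%), and 558 had an unadjusted p under 0.05 (3.62%). The gene was ATF3. In the fit of 10 libraries its log2 change in the second set was 0.55 (SE 0.18), and the difference between the sets was -2.04 (SE 0.23, edgeR adjusted p = 0.0113). That call is lost when EV4, EV5, OE1, OE2 or OE4 is left out. For KLF10 the difference was -1.07 (SE 0.15, edgeR adjusted p = 0.0701), for NEAT1 -0.97 (SE 0.17, edgeR adjusted p = 0.198), for TXNIP -0.77 (SE 0.14, edgeR adjusted p = 0.256) and for NR1D1 -0.86 (SE 0.24, edgeR adjusted p = 1). Their log2 changes in the second set were 0.13, 0.16, 0.01 and 0.06. The list medians in the second set were 0.05 for p53 targets, 0.13 for histones, 0.02 for long non-coding RNAs and -0.01 for epithelial genes. Interferon genes had 0.19 and TGF-beta and BMP targets 0.03, also not on their side of the first set. Mitochondrially encoded genes had -0.14 and antigen presentation genes 0.08, on the same side of 0 as in the first set. No source used here says how the sets differed in day, culture, vector or run.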

How the data were processed

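RNA of TPC-1 cells was extracted, made into libraries and sequenced in paired ends, per the labels. The submitters' processing notes name the build hg38 and, without roles, DESeq2 1.20.0, featureCounts 1.5.0-p3, HISAT2 2.0.5, fastp and CASAVA 1.8. The annotation release and any use of strand are not given in the sources used. The deposited values are a raw count per gene and library, per the file headers, for 58735 genes, with a gene length in bases. The 14 other deposited per-library columns were not used. The OE and EV groups come from the sample titles.

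Genes that passed edgeR's default filterByExpr filter were tested with edgeR 4.0.16 in R 4.3.3 (glmQLFit and glmQLFTest, TMM scaling, no block, adjusted p under 0.05). CPM use TMM-scaled library sizes, except sums over marker lists, which use plain totals. Separation of groups was read on log2 CPM with a prior count of 2. The difference between sets was an interaction over 4 group-by-set means. Alternatives were other scalings and filters, DESeq2 1.42.0, limma-voom (limma 3.58.1), a replicate block, each library left out, all 10 libraries in 1 fit and, chosen after seeing the data, a GC and length offset (lowess span of 0.3; GC content from GENCODE transcripts, present for 14335 of 14340 genes).

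The comparison, the gene lists and their members were chosen with earlier results of these data known. Genes are named by rule: all past the threshold; the 12 largest gaps per direction; from each list up to 4 tested members with the lowest p; without EV2 the 10 largest changes per direction; the 8 per direction in which EV2 stood farthest from EV1 and EV3; and the tested neighbours of PTCSC3. Lists are described by counts and medians, with no test. Within a group, counts of each pair of libraries differed beyond sampling noise, with a chi-square statistic of 4.47 to 49.6 per degree of freedom, so none was treated as a copy.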

Additional observations from a re-analysis of the deposited data

Results flagged for a closer look

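ATF3 had a log2 change of -1.49 with the first 6 libraries and an estimate of 0.55 (SE 0.18) for the second set, for which no p-value is given here. The difference between the sets passed the interaction test. The log2 change in the first set minus that in the second set was -2.04 (SE 0.23, edgeR adjusted p = 0.0113). The call is lost without EV4, EV5, OE1, OE2 or OE4, and over the alternatives the number of genes with such a difference ranged from 0 to 28.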

How the results depend on the processing

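The counts of genes past the threshold rest on the fit. With 6 libraries, 0 genes were higher and 5 lower. Without a low-count filter 30 were higher and 60 lower, and with DESeq2 24 and 52. The number lower was 8 with the GC and length offset and 8 with all 10 libraries in 1 fit. Leaving out 1 library gave 0 to 896 higher and 0 to 682 lower, the upper ends without EV2. Without EV2, the GC and length offset gave 448 higher and 436 lower, with 539 of the 1578 calls shared, and leaving out a further library gave 72 to 1038 higher and 89 to 981 lower, the lower ends without EV3, where the lone EV library is assumed to vary like the OE libraries. With a gap of at least 0.2, 162 genes had all OE libraries above EV and 255 below. Leaving out 1 library gave 1546 to 2933 above and 1643 to 3077 below, the upper ends without EV2. These counts could not fall, since dropping a library cannot undo a separation, so only the size of the rise differs between libraries. The difference between the sets was called for 28 genes without a filter, 9 with DESeq2 and 0 to 8 with 1 library left out. The cause of these moves was not tested.

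No label says whether same-numbered libraries were paired, and no pairing showed in the counts. Deviations of same-numbered libraries correlated at -0.12, -0.01 and 0.16, and those of different numbers at -0.18 to 0.20. With a replicate block 1 gene, ATF3, was lower and 0 higher with 6 libraries, and the difference between the sets was called for 3 genes. Without EV2 the block gave 1459 higher and 1063 lower. In that fit OE2 has no partner and does not inform the change, which rests on EV1, EV3, OE1 and OE3. Little is then left to measure spread, so these 2 counts are weakly founded.

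Of the 5 RNAs that fell, limma-voom, RLE size factors, plain library totals, the GC and length offset and the fit of all 10 libraries each called 4, with NR1D1 or NEAT1 the one lost. Signs turned for genes with small or few-count changes. The range with 1 library left out was -0.12 (EV1) to 0.93 (EV2) for CD14, -0.47 (OE1) to 0.18 (OE3) for CSF1R, -0.16 (EV1) to 0.000885 (EV3) for KIAA0391, -0.16 (EV1) to 0.029 (EV2) for NFKBIA, -0.34 (EV2) to 0.15 (EV3) for RALGAPA1, -0.43 (EV3) to 0.21 (EV2) for S100A3 and -0.14 (OE3) to 0.41 (OE2) for SYP, and PSMA6 had 0.00092 with the GC and length offset. A count of 0 limits a gene to 0.166 to 0.187 CPM per library.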

Other observations

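In the other lists none of the genes passed the test with 6 libraries, and over all genes 8.44% lay above and 8.57% below. Of 36 G2/M and mitosis genes 2 lay above EV in all OE libraries and 1 below, the kinesin CENPE, at 65.6, 58.5 and 70.3 CPM in EV and 44.4, 52.8 and 47.9 CPM in OE. CENPE had a log2 change of -0.42, and -0.31 with the GC and length offset. Of 24 mesenchymal genes 4 lay above and 3 below. The collagens COL6A1, COL4A2 and COL6A2 had log2 changes of 0.31, 0.37 and 0.23, but 0.14, 0.21 and 0.04 with the GC and length offset. SNAI1, a repressor of epithelial genes, stood at 8.47, 9.20 and 10.2 CPM in EV and 7.19, 5.09 and 4.70 CPM in OE (log2 change -0.71, SE 0.19, and -0.82 with the offset). Of 24 matrix proteases and inhibitors 5 lay above and 1 below. MMP15, a membrane-anchored protease, had a log2 change of 0.55 (SE 0.14), and 0.37 with the offset. Of 27 RET and receptor tyrosine kinase genes 4 lay above and 2 below, with the adaptors GRB2 at 0.18 and FRS2 at -0.37.

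Of 21 YAP/TAZ targets 6 lay below and 1 above, with a median of -0.09. ANKRD1 stood at 1.75, 1.73 and 1.65 CPM in EV and 0.396, 0.111 and 0.679 CPM in OE, where OE2 was under the level of 3 counts. CTGF, a matricellular growth factor, stood at 148, 164 and 154 CPM in EV and 130.4, 134 and 137 CPM in OE. Of 22 NRF2 targets 3 lay below and 2 above. HMOX1, haem oxygenase, stood at 1219, 1072 and 1028 CPM in EV and 826, 716 and 982 CPM in OE (log2 change -0.39, SE 0.12). Of 20 heat shock chaperones 2 lay below and 0 above. Of 10 tested thyroid differentiation genes 2 lay above, PAX8 and THRA. The list median was 0.19 with 6 libraries and 0.09 without EV2, which lay a median of 0.64 below EV1 and EV3 in these genes. FOXE1, a thyroid forkhead factor, was at 13.8 CPM in EV2 and at 22.02 and 24.0 CPM in EV1 and EV3.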
